A study of Homo sapiens with 8 samples.

Results

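The IGF-binding protein family comprises the secreted proteins IGFBP1 to IGFBP7, and its genes were found by symbol in the deposited tables, where they are 7 of 20531 genes. The family was chosen by name after the fall of IGFBP5 with JQ1 had been seen in these same libraries, so that the JQ1 against DMSO values of IGFBP5, and every other value of IGFBP5 that draws on the libraries with JQ1 alone, are given as a description. A gene was kept for the comparisons when its value reached 10 in at least 1 of the 8 libraries, which held for 14429 genes and for 5 of the 7 members (IGFBP2, IGFBP3, IGFBP4, IGFBP5 and IGFBP7). IGFBP1 and IGFBP6 were not kept.

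The study treated HER2+ breast cancer cells with lapatinib, an inhibitor of the HER2 and EGFR kinases, and with JQ1, which displaces BET bromodomain proteins from acetylated chromatin. SKBR-3 is a HER2+ line without estrogen and progesterone receptors, and BT474m1 is a derivative of the HER2+ line BT474 that has both receptors. Each line was grown in RPMI medium with 10% fetal bovine serum and exposed for 48 h (the time on the labels) to DMSO, to 300 nM lapatinib, to 300 nM JQ1 or to their combination at these doses. Each of the 8 groups held 1 RNA library, so that no difference within a line has a replicate check and no test was made within a line. A test that takes the 2 lines as replicates of each other was not run. The values are normalised read counts, scaled within each library to an upper quartile of 1000 over the genes above 0. The intervals given are 95% exact Clopper-Pearson intervals from the reads, and they cover counting error only, since reads without molecular identifiers can be copies of 1 molecule. A lower value can mean fewer cells that hold the transcript or less of it per cell, which cannot be told apart here.

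IGF-binding proteins bind the insulin-like growth factors IGF1 and IGF2 in the extracellular space with high affinity, and thereby hold them away from, or deliver them to, the type 1 IGF receptor. Proteases that cleave the binding proteins, such as PAPPA, release the growth factor. Several members, IGFBP5 among them, also bind extracellular matrix and cell surface proteins and act without IGF. In the mammary gland IGFBP5 is known for its rise during involution, when milk-producing cells die and the tissue is remodelled. IGFBP2 and IGFBP5 lie next to each other, tail to tail, on chromosome 2, and IGFBP1 and IGFBP3 are likewise neighbours on chromosome 7.

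The promoters of IGFBP5, IGFBP2 and IGFBP4 are shown because most of the results below concern these 3 members, and because IGFBP2 and IGFBP5 are neighbours. Each window runs from 250 bases before to 50 bases after the start of the gene in the RefSeq annotation of GRCh38.p14, which gave a window for 5 of the 7 members, and is written 5′ to 3′ on the strand of the gene. IGFBP5 is at chr2:216695500-216695799 on the minus strand, the MANE Select start of IGFBP2 is at chr2:216633170-216633469 on the plus strand, and IGFBP4 is at chr17:40443200-40443499 on the plus strand. Capitals mark matches on either strand to the TATA box TATAAA, to its variant form TATTTAA, to the GC box GGGCGG or to the AP-2 motif GCCNNNGGC.
IGFBP5: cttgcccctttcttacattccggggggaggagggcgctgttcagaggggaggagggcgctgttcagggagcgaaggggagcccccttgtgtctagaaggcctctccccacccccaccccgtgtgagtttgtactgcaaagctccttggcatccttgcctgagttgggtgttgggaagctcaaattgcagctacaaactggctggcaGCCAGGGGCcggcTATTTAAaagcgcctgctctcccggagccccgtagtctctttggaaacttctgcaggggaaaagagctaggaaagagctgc
IGFBP2: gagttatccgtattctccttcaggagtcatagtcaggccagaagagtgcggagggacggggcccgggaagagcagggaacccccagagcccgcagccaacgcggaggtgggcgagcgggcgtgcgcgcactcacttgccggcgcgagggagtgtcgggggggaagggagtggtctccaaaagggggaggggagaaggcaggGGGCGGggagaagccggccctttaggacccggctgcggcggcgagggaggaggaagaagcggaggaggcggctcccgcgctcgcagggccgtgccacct
IGFBP4: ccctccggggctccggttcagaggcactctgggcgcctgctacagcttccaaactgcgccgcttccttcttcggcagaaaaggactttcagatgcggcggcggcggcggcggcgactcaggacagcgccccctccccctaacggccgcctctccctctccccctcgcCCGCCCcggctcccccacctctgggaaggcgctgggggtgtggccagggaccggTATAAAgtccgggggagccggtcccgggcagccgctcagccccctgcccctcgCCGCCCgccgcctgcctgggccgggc

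The window of IGFBP5 held 9 CpG dinucleotides at a GC content of 59.0%, against medians of 14 and 58.7% over the 35116 promoter windows. It had a TATTTAA match 31 bases before the start and an AP-2 match 44 bases before it, which do not overlap, and no GC box. TATTTAA occurs in 4.52% and GCCNNNGGC in 23.2% of all promoter windows. The MANE Select window of IGFBP2 held 28 CpG dinucleotides, 1 GC box and neither TATA form. The other 2 windows that RefSeq gives for IGFBP2 held 8 and 6 CpG dinucleotides, and which start these cells use is not known from the tables. The window of IGFBP4 held 30 CpG dinucleotides, a TATAAA match 29 bases before the start and 2 GC boxes, of which 1 lies after the start. TATAAA was found in 11.5% and the GC box in 45.0% of all windows. The forkhead motif GTAAACA, found in 3.42% of all windows, had no match in these 3 windows, nor did its other form GTCAACA, found in 2.32%. A match of letters is a description and not a binding site.

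The libraries held 21420113 to 34112380 reads on genes, and 14839 to 16389 genes had a value above 0. Of the luminal epithelial markers, KRT8, KRT18, KRT19, EPCAM and ERBB2 were abundant in all 8 libraries, whereas CDH1, the epithelial cadherin, lay between 2.58 and 15.1 in SKBR-3 and between 19413 and 24373 in BT474m1. The summed level of 6 fibroblast markers lay between 24.1 and 1263, nearly all of it COL1A1. LUM was at 0 in all 8 libraries, and DCN stayed at or below 0.766. The 4 leukocyte markers summed to 0.688 to 7.25, the 4 endothelial markers to 7.58 to 191, and the 5 basal markers to 37.7 to 85.1.

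IGFBP5, a binding protein that is also held in the extracellular matrix, was lowest with JQ1 and highest with lapatinib in both lines. In SKBR-3 its normalised read count was 17021 in DMSO, 28073 in lapatinib, 577 in JQ1 and 2470 in the combination. In BT474m1 it was 38861 in DMSO, 136501 in lapatinib, 1438 in JQ1 and 8160 in the combination. The order of the 4 treatments was the same in both lines, with lapatinib highest, then DMSO, then both drugs, and JQ1 lowest, and BT474m1 was above SKBR-3 under each treatment. With 896 to 226591 reads behind each value, neighbouring libraries in this order differed beyond counting error, but the spread between cultures is unknown.

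In BT474m1 the share of IGFBP5 in all summed values was 0.853% under lapatinib against 0.242% in DMSO, 0.00879% under JQ1 and 0.0513% under the combination. In SKBR-3 the shares were 0.171% under lapatinib, 0.108% in DMSO, 0.00330% under JQ1 and 0.0147% under the combination.

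**Figure D1:**
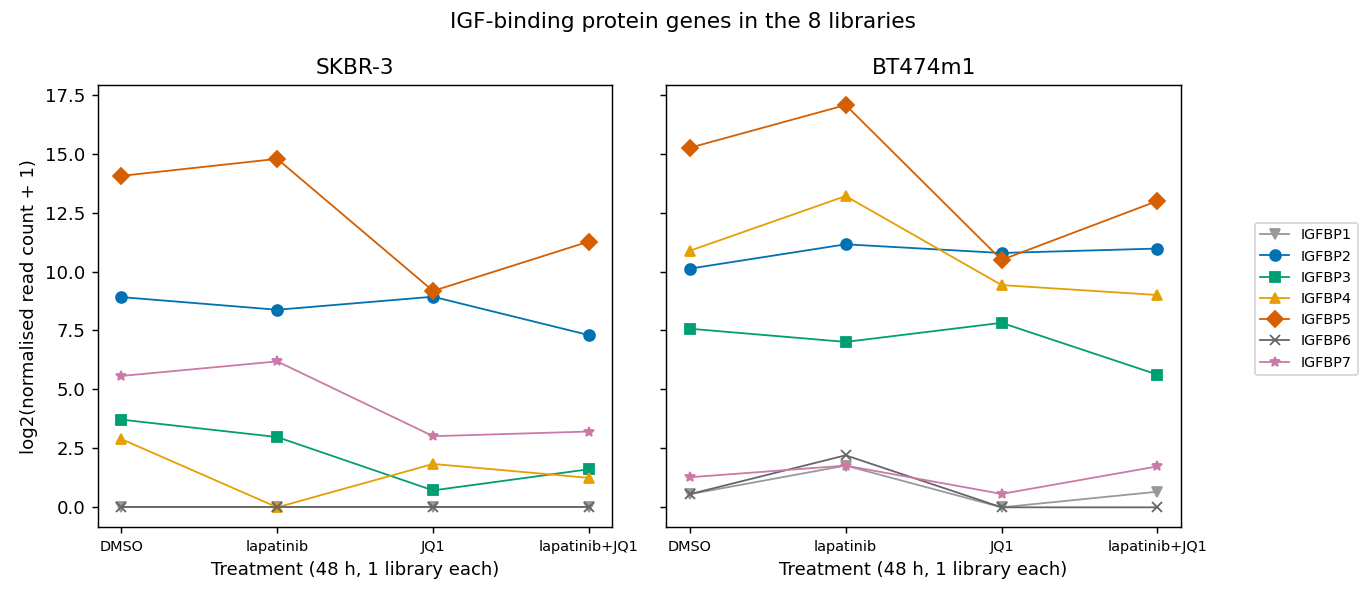
Normalised read counts of the 7 IGF-binding protein genes on a log2(value + 1) scale, for SKBR-3 (left) and BT474m1 (right), with 1 point per library and treatments on the horizontal axis. IGFBP5 is lowest with JQ1 in both lines, and IGFBP4 is at 0 to 6.44 in SKBR-3 and at 512 to 9404 in BT474m1 before the log scale.

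Relative to DMSO, JQ1 lowered IGFBP5 29.4-fold in SKBR-3 (log2 fold change -4.88, counting interval -4.98 to -4.79) and 27.0-fold in BT474m1 (log2 fold change -4.76, counting interval -4.81 to -4.70). Over the genes kept, these changes ranked 7 from the lowest in SKBR-3 and 12 in BT474m1. When only genes reaching 100 in a library of the comparison were taken, IGFBP5 ranked 5 of 9962 and 5 of 10681. These are the values that led to the choice of the family and no weight is laid on them.

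Lapatinib, compared with DMSO, raised IGFBP5 in BT474m1 by 1.81 on the log2 scale (counting interval 1.80 to 1.82). In SKBR-3 the log2 fold change was 0.72 (counting interval 0.70 to 0.75), which is below the 2-fold needed for a call. The BT474m1 value ranked 289 from the highest of 11004 genes reaching 100 in a library of the comparison, so that many genes rose further. The difference between BT474m1 and SKBR-3 in IGFBP5 was 1.19 on the log2 scale with DMSO and 2.28 with lapatinib.

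The effect of adding the second drug was compared in both directions. When JQ1 was added to lapatinib, IGFBP5 fell, with a log2 fold change of -3.51 in SKBR-3 (counting interval -3.56 to -3.46) and of -4.06 in BT474m1 (counting interval -4.09 to -4.04). When lapatinib was added to JQ1, IGFBP5 rose by 2.10 in SKBR-3 (counting interval 1.99 to 2.20) and by 2.50 in BT474m1 (counting interval 2.45 to 2.56). The values against JQ1 rest on the libraries in which the low level of IGFBP5 led to the choice of the family, and nothing is read from their size.

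With both drugs IGFBP5 remained below DMSO, with a log2 fold change of -2.78 in SKBR-3 (counting interval -2.84 to -2.73) and -2.25 in BT474m1 (counting interval -2.28 to -2.23). The sum of the single-drug log2 changes would place it at -4.16 and -2.94. The combined change was therefore above that sum by 1.37 (counting SE 0.06) in SKBR-3 and by 0.69 (counting SE 0.03) in BT474m1, where the median over all genes kept was -0.06 and 0.01. The departure contains the JQ1 against DMSO change that led to the choice of the family, and a very low value there moves it upwards, so that it is a description. These comparisons share libraries, and with 1 library per group the departure has no replicate check.

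**Figure D2:**
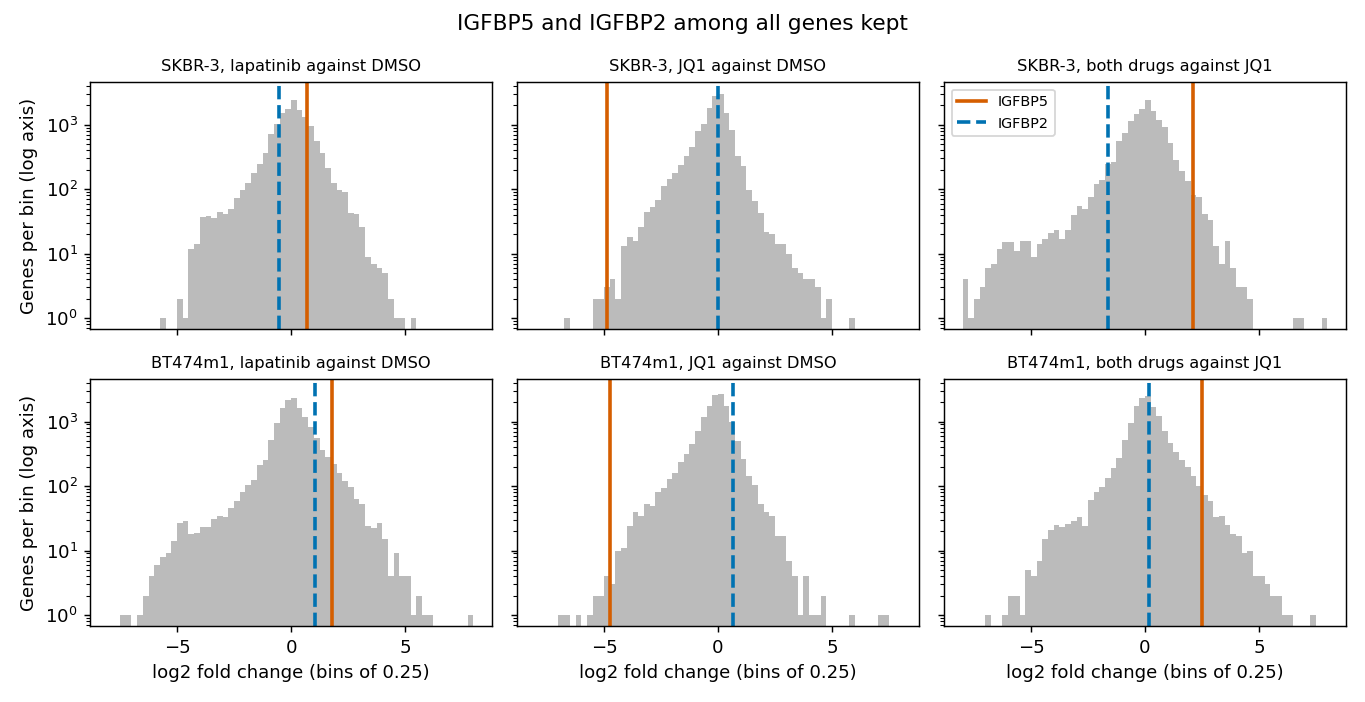
Number of genes per bin of log2 fold change, on a log axis, for all genes kept, with SKBR-3 above and BT474m1 below and columns for lapatinib against DMSO, JQ1 against DMSO and both drugs against JQ1. The solid line marks IGFBP5, at -4.88 and -4.76 with JQ1, and the dashed line marks IGFBP2, at 0.02 and 0.66.

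IGFBP2, which carries an integrin-binding RGD sequence, is the member next to IGFBP5 on the chromosome. Its normalised read count in SKBR-3 was 482 in DMSO, 332 in lapatinib, 487 in JQ1 and 157 in the combination. In BT474m1 it was 1113 in DMSO, 2276 in lapatinib, 1764 in JQ1 and 2009 in the combination. In SKBR-3 the library with both drugs was lowest, whereas in BT474m1 DMSO was lowest and all 3 drug libraries were higher.

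The log2 fold change of IGFBP2 with JQ1 against DMSO was 0.02 in SKBR-3 (counting interval -0.14 to 0.17), a value that is -0.13 when libraries are scaled to equal totals, and 0.66 in BT474m1 (counting interval 0.59 to 0.74). With lapatinib it was -0.54 in SKBR-3 (counting interval -0.72 to -0.36), and IGFBP2 rose by 1.03 in BT474m1 (counting interval 0.96 to 1.11), which becomes 0.98 and is no longer 2-fold with median-of-ratios scaling. With both drugs IGFBP2 fell by 1.61 in SKBR-3 (counting interval -1.84 to -1.40), while in BT474m1 its log2 fold change was 0.85 (counting interval 0.78 to 0.93). The combined change was below the sum of the single-drug changes in both lines, with a departure of -1.09 (counting SE 0.14) in SKBR-3 and -0.84 (counting SE 0.05) in BT474m1. BT474m1 was above SKBR-3 in IGFBP2 under each treatment, by 1.21 log2 units in DMSO, 2.78 in lapatinib, 1.85 in JQ1 and 3.67 in the combination.

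A ratio within 1 library does not depend on the scaling between libraries. Per kilobase of transcript, the ratio of IGFBP5 to IGFBP2 in SKBR-3 was 8.01 in DMSO, 19.2 in lapatinib, 0.269 in JQ1 and 3.57 in the combination. In BT474m1 it was 7.91 in DMSO, 13.6 in lapatinib, 0.185 in JQ1 and 0.920 in the combination. The ratio was alike in the DMSO libraries of the lines, higher with lapatinib and below 1 with JQ1 in both. With both drugs it was above 1 in SKBR-3 only.

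IGFBP3, the main carrier of IGF in serum, where it forms a complex with IGFs and IGFALS, had few reads in SKBR-3 and more in BT474m1. In BT474m1 its normalised read count was 189.5 in DMSO, 128 in lapatinib, 226 in JQ1 and 48.4 in the combination. With both drugs it fell by 1.95 against DMSO (counting interval -2.33 to -1.63), with a log2 fold change of -1.39 against lapatinib (counting interval -1.79 to -1.03) and of -2.20 against JQ1 (counting interval -2.58 to -1.88). Neither single drug reached 2-fold there, with log2 fold changes of -0.56 for lapatinib and 0.25 for JQ1.

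In SKBR-3, IGFBP3 had 17 reads in DMSO, 9 in lapatinib, 1 in JQ1 and 3 in the combination. The ratio of JQ1 to DMSO was 0.0529 with a counting interval of 0.00127 to 0.338, and that of both drugs to DMSO was 0.170 with a counting interval of 0.0318 to 0.586. The log2 fold change with lapatinib was -0.74, and its counting interval of -2.17 to 0.43 includes no change. Across the lines with DMSO, IGFBP3 was 3.85 log2 units higher in BT474m1 (counting interval 3.26 to 4.76).

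IGFBP4, a member known mainly as an inhibitor of IGF action and as a substrate of the protease PAPPA, differed most between the lines. Its normalised read count in BT474m1 was 1880.2 in DMSO, 9404 in lapatinib, 686 in JQ1 and 512 in the combination. In SKBR-3 it had 9 reads in DMSO, 0 in lapatinib, 4 in JQ1 and 2 in the combination. The DMSO library of BT474m1 was 7.98 log2 units above that of SKBR-3 (counting interval 7.26 to 9.32).

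In BT474m1, lapatinib raised IGFBP4 by 2.32 on the log2 scale (counting interval 2.27 to 2.37), ranking 139 from the highest of 11004 genes reaching 100 in a library of the comparison. With JQ1 its log2 fold change against DMSO was -1.45 (counting interval -1.54 to -1.37), and with both drugs it was -1.87 (counting interval -1.98 to -1.77). IGFBP4 was lower with both drugs than with JQ1 alone, at a log2 fold change of -0.42 (counting interval -0.55 to -0.30). This is below the 2-fold needed for a call. On adding JQ1 to lapatinib its log2 fold change was -4.20 (counting interval -4.30 to -4.10), which ranked 35 from the lowest of 10813 genes. The combined change was below the sum of the single-drug changes, with a departure of -2.74 (counting SE 0.07), and 99.7% of the genes kept had a departure at least as high.

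In SKBR-3 the 0 reads of IGFBP4 with lapatinib, against 9 with DMSO, put it at least 2.80-fold lower when the floor of 3 reads per library is taken and the 9 reads are taken as exact. With counting error in both libraries the ratio of lapatinib to DMSO was at most 0.542. The counting intervals of the log2 fold changes with JQ1 (-3.47 to 0.52) and with both drugs (-5.48 to 0.05) include no change.

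**Figure D3:**
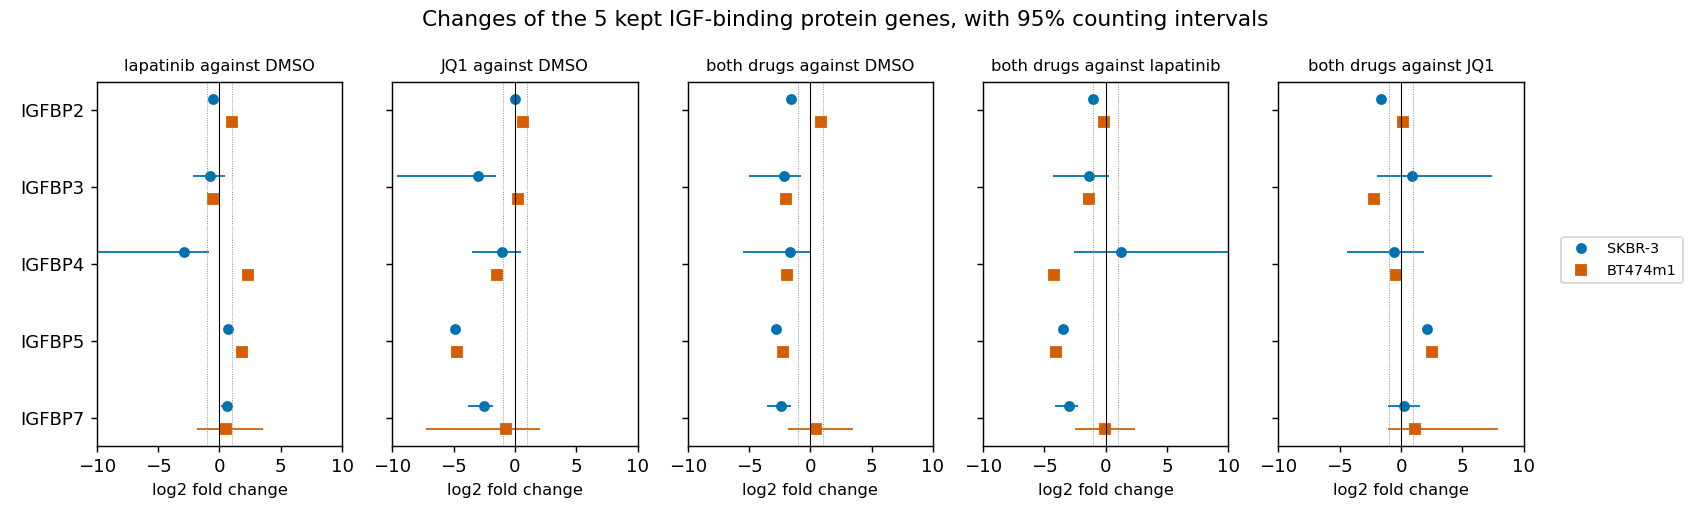
Log2 fold changes of the 5 kept members in 5 comparisons, with circles for SKBR-3, squares for BT474m1, 95% counting intervals as horizontal bars cut at the axis limits, and dotted lines at 2-fold. IGFBP5 lies near -4.8 with JQ1 in both lines and above 2 where lapatinib was added to JQ1, and the wide bars are the members with few reads.

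IGFBP7, a relative with low affinity for IGF that is abundant in blood vessels, was found in SKBR-3. Its normalised read count there was 46.5 in DMSO, 71.9 in lapatinib, 7.09 in JQ1 and 8.28 in the combination, or 65, 94, 11 and 12 reads. It fell with JQ1, at a log2 fold change of -2.55 (counting interval -3.79 to -1.78), and with both drugs, at -2.36 (counting interval -3.52 to -1.59). With a pseudocount of 10 these falls are -1.73 and -1.63. The log2 fold change with lapatinib was 0.62 (counting interval 0.16 to 1.11), and that of both drugs against JQ1 was 0.20 (counting interval -1.09 to 1.54). No rise on adding lapatinib to JQ1 was detectable at this depth.

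In BT474m1 IGFBP7 had 1 to 4 reads in each library, too few to compare the treatments. The endothelial markers CDH5 and VWF were also present in SKBR-3: CDH5 was 126, 71.2, 19.97 and 16.5, and VWF was 22.9, 24.5, 1.93 and 11.7 in DMSO, lapatinib, JQ1 and the combination. KDR was at most 4.59, and PECAM1 was at 0 in all 4 SKBR-3 libraries. In the DMSO library of BT474m1, where IGFBP7 had 3 reads, VWF was 153 and CDH5 was 36.3. IGFBP7 overlaps POLR2B and IGFBP7-AS1 on the RefSeq annotation, and its estimated reads were not whole in 3 SKBR-3 libraries, so that its values are uncertain. The part of these in the fall of IGFBP7 was not tested.

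IGFBP1, a liver and decidual protein under the control of insulin, and IGFBP6, which prefers IGF2, were at 0 in all 4 SKBR-3 libraries. A count of 0 there allows a value of up to 1.93 to 2.30. In BT474m1 IGFBP1 had 1, 4, 0 and 1 reads and IGFBP6 had 1, 6, 0 and 0 reads in DMSO, lapatinib, JQ1 and the combination. Both genes had most reads with lapatinib, but at counts too low for a comparison.

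Per kilobase of the MANE Select transcript, levels can be compared between members. The transcripts are 6239 bases long for IGFBP5, 2613 for IGFBP3, 2205 for IGFBP4, 1427 for IGFBP7 and 1414 for IGFBP2, and 13512 of the 14429 genes kept (93.6%) had such a length. IGFBP5 per kilobase was 2728, 4499.6, 92.5 and 396 in SKBR-3 and 6229, 21879, 230.5 and 1308 in BT474m1 in DMSO, lapatinib, JQ1 and the combination. Its rank per kilobase among the genes with a length was 336, 165, 7102 and 2860 in SKBR-3 and 105, 9, 4741 and 826 in BT474m1, in the same order.

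The share of IGFBP5 in the family total per kilobase was 87.7% in DMSO, 94.0% in lapatinib, 20.9% in JQ1 and 77.0% in the combination in SKBR-3. In BT474m1 it was 78.4%, 78.7%, 12.3% and 43.9% in the same order. Under JQ1 the largest share was that of IGFBP2, at 77.7% in SKBR-3 and 66.5% in BT474m1. Under the combination IGFBP2 was also the largest in BT474m1, at 47.7%. IGFBP4 made up 10.7%, 15.3%, 16.6% and 7.79% of the family total in BT474m1. Its larger share with JQ1 than with DMSO stands beside a lower value of its own. These shares rest on 1 transcript per gene, and the transcripts present in the cells were not analysed here.

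**Figure D4:**
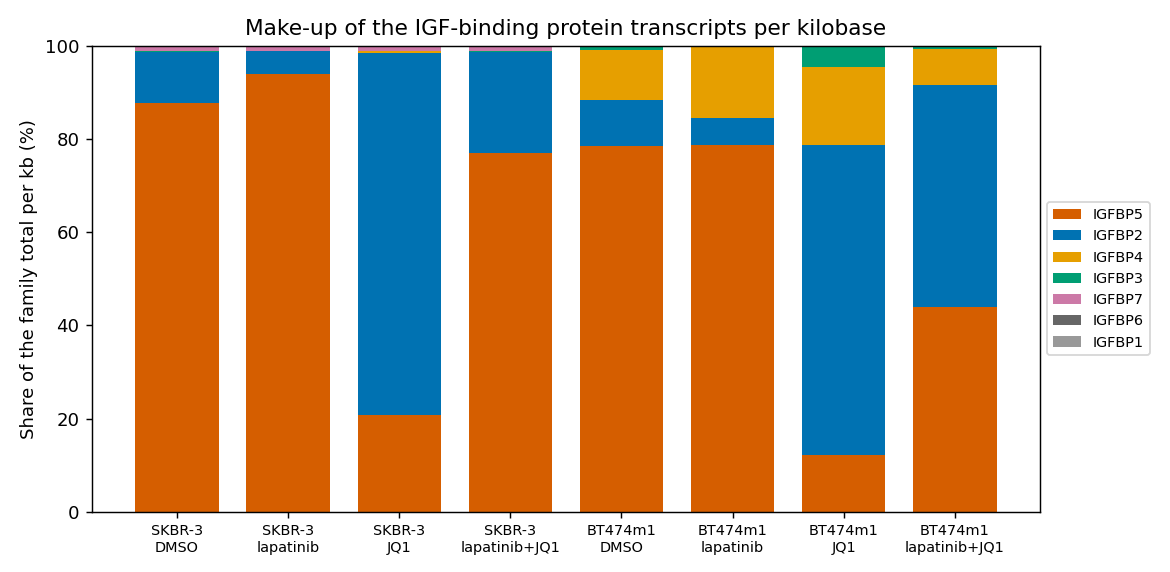
Share of each IGF-binding protein gene in the family total of normalised read count per kilobase, as stacked bars that add up to 100% for each of the 8 libraries. IGFBP5 is the largest share in 5 libraries, and IGFBP2 is the largest in both JQ1 libraries and in the BT474m1 library with both drugs.

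The calls over the 5 kept members are set beside all genes kept. With JQ1 against DMSO, 0 members rose and 4 fell at least 2-fold in SKBR-3, where 3.75% of all genes rose and 11.8% fell, and nothing is read from the fall of IGFBP5 among them. The other 3 were IGFBP3, IGFBP4 and IGFBP7, at 17, 9 and 65 reads with DMSO. IGFBP4 was kept only through BT474m1, its interval in SKBR-3 includes no change, and the count is 3 with a pseudocount of 10. In BT474m1, 0 rose and IGFBP4 and IGFBP5 fell, against 4.81% and 11.8% of all genes. The median log2 fold change of the 5 in SKBR-3 is that of IGFBP7, -2.55, beside -0.08 over all genes kept, and with a pseudocount of 10 it is that of IGFBP3, -1.06, on 1 read against 17. In BT474m1 the median is the value of IGFBP7, which rests on 1 read against 3, and it is not used.

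With lapatinib, 0 members rose and 1 fell in SKBR-3, where 11.1% of all genes rose and 9.44% fell. The 1 is IGFBP4, on 0 reads against 9 and kept only through BT474m1, and the count is 0 with a pseudocount of 10. In BT474m1, 3 rose and 0 fell, against 14.0% and 8.06% of all genes. The 3 were IGFBP2, IGFBP4 and IGFBP5, and with median-of-ratios scaling the count is 2, without IGFBP2. The median log2 fold change was -0.54 in SKBR-3 and 1.03 in BT474m1, beside 0.05 and 0.07 over all genes. The SKBR-3 median counts the value of IGFBP4, and that of BT474m1 counts IGFBP7, on 4 reads against 3 and kept only through SKBR-3. These medians are therefore not used.

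With both drugs against DMSO, 0 members were at least 2-fold higher and 5 were at least 2-fold lower in SKBR-3, where 10.8% of all genes rose and 20.8% fell. In BT474m1, 0 rose and 3 fell (IGFBP3, IGFBP4 and IGFBP5), against 14.2% and 15.3% of all genes. The median log2 fold change in BT474m1 was -1.87, beside 0.00 over all genes. In SKBR-3 the median is the value of IGFBP3, which rests on 3 reads against 17, and it is not used. Of the 5 in SKBR-3, IGFBP3 and IGFBP4 rest on 17 and 9 reads with DMSO. IGFBP4 was kept only through BT474m1 and its interval includes no change, and the count is 3 with a pseudocount of 10.

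When JQ1 was added to lapatinib, 4 members were at least 2-fold lower in SKBR-3 and 1 was higher, against 16.2% and 3.22% of all genes, and the higher one is IGFBP4 at 2 reads against 0. Of the 4 lower members, IGFBP3 had 3 reads against 9 with a counting interval of -4.26 to 0.26 that includes no change, and IGFBP2, at -1.08, is at -0.92 and no longer 2-fold with median-of-ratios scaling. In BT474m1, 3 were lower and 0 higher, against 12.5% and 5.2%. When lapatinib was added to JQ1, IGFBP5 rose and IGFBP2 fell in SKBR-3, where 9.79% of all genes rose and 12.3% fell. In BT474m1, IGFBP5 rose and IGFBP3 fell, against 12.4% and 7.27% of all genes, and IGFBP7 also passed 2-fold at 4 reads against 1. Between the DMSO libraries, 4 members were higher in BT474m1 and 1, IGFBP7, was lower, where 26.8% of all genes were higher and 15.6% lower.

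The nearest kept gene on each side of each member was taken from the RefSeq annotation of GRCh38.p14, and can lie far away. DIRC3, a long noncoding RNA gene 588 kb beyond IGFBP5, had 35, 15, 0 and 3 reads in SKBR-3 and 79, 79, 3 and 4 reads in BT474m1 in DMSO, lapatinib, JQ1 and the combination. With JQ1 it was at least 12.96-fold lower than in DMSO in SKBR-3, when the floor of 3 reads is taken and the 35 reads are taken as exact. Both libraries with JQ1 were low in each line, and their reads are too few to order them. With lapatinib the log2 fold change of DIRC3 was -1.06 in SKBR-3 and 0.35 in BT474m1. RPL37A, a ribosomal protein gene on the other side of IGFBP2, had log2 fold changes of -0.24 and 0.07 with JQ1. On the same annotation IGFBP5 overlaps the noncoding genes IGFBP-AS1 and LOC124900515, whose reads could not be told apart from its own if strand was not used in counting.

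**Figure D5:**
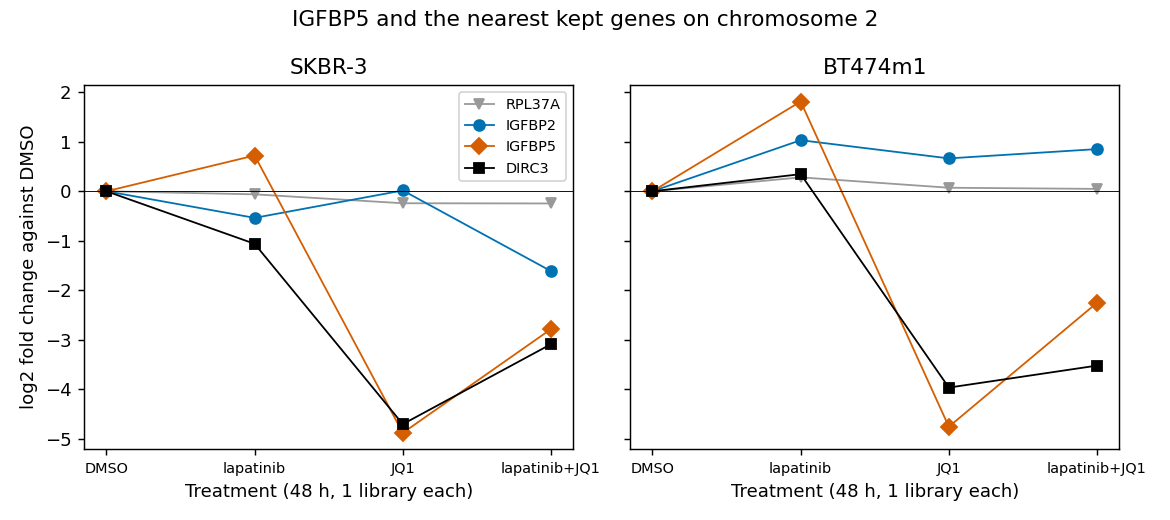
Log2 fold change against DMSO of IGFBP5, IGFBP2 and the nearest kept genes on either side, RPL37A and DIRC3, for SKBR-3 (left) and BT474m1 (right), with 1 library per treatment. IGFBP5 and DIRC3 go down with JQ1 in both lines while IGFBP2 and RPL37A stay between -0.24 and 0.66, and DIRC3 has at most 4 reads in any library with JQ1.

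IGFBP4 lies between TOP2A, a DNA topoisomerase of proliferating cells, and TNS4. In BT474m1 TOP2A fell by 3.88 on the log2 scale under lapatinib, where IGFBP4 rose by 2.32, and TNS4 had a log2 fold change of -0.33. The neighbours beyond the other members, SEPTIN7P2 and TNS3 for IGFBP1 and IGFBP3, SPRYD3 and SOAT2 for IGFBP6, and NOA1 and CENPC for IGFBP7, lie up to 1354 kb (TNS3) and 10358 kb (CENPC) away. Their log2 fold changes with JQ1 in BT474m1 lay between -1.15 (TNS3) and 0.56 (SEPTIN7P2). In SKBR-3, SOAT2 went from 10.7 to 0 with JQ1, and the others lay between -1.65 (TNS3) and 0.06 (NOA1).

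For IGFBP2, IGFBP3 and IGFBP5, the members reaching 10 in both lines, the genes of most similar pattern were found by Pearson's r over the 8 libraries of log2 values centred within each line, among 9841 genes reaching 100 in a library of each line. For IGFBP5 they were MTA1 (r = 0.997), USP21 (r = 0.991), SLC35C1 (r = 0.987), PDK2 (r = 0.986) and PCBD1 (r = 0.986). The libraries are shared between all genes, r takes no account of size, and these genes moved less than IGFBP5. MTA1, for example, was 1193, 1237, 699.7 and 859.8 in SKBR-3 and 1275, 1605, 723 and 984 in BT474m1. PDK2, a kinase that inhibits pyruvate dehydrogenase, had the widest range of the 5, with 139.6, 217, 19.3 and 37.8 in SKBR-3 and 1133, 2664, 148 and 719 in BT474m1. For IGFBP2 the most alike genes were THEM6 (r = 0.963) and SLC27A4 (r = 0.962), and for IGFBP3 they were MRPL44 (r = 0.949) and THOC5 (r = 0.947), with the SKBR-3 values of IGFBP3 resting on 17, 9, 1 and 3 reads.

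Of 13 ligands, receptors and adaptors of the IGF and insulin pathway, 12 were kept. Here and in the lists that follow, pairs of log2 fold changes are for SKBR-3 and then BT474m1. With lapatinib 3 rose and 1 fell in SKBR-3 and 7 rose and 2 fell in BT474m1, with JQ1 1 rose and 1 fell in SKBR-3 and 1 rose and 2 fell in BT474m1, and under the combination 5 rose and 1 fell in SKBR-3 and 4 rose and 1 fell in BT474m1. Over all genes kept, the shares that rose and fell were 11.1% and 9.44% in SKBR-3 and 14.0% and 8.06% in BT474m1 with lapatinib, 3.75% and 11.8% and then 4.81% and 11.8% with JQ1, and 10.8% and 20.8% and then 14.2% and 15.3% under the combination. Counts of 1 or 2 in a list of this size are near these shares. In this and the other lists, a gene kept through one library can be called in a comparison whose own libraries are both under 10, and the shares over all genes include such calls too. Here they were IGFALS with lapatinib in SKBR-3, IGF2 and GRB14 with lapatinib in BT474m1, 4 of the 5 calls with JQ1 (all but that of IRS1 in BT474m1), IGF1 under the combination in SKBR-3, and IGF2 and IRS4 under the combination in BT474m1. IGF1 with JQ1 in SKBR-3 and IRS4 with JQ1 in BT474m1 rest on 4 reads against 0. The receptor INSR rose with lapatinib (1.88 and 1.19), and the adaptor IRS2, which passes on signals of the insulin and IGF receptors, rose as well (1.64 and 2.45). IRS2 rose again when lapatinib was added to JQ1, by 3.58 and 2.28. So did INSR, by 2.05 and 1.63, and IGF1R, the receptor that IGF1 activates, by 1.23 and 1.75. In SKBR-3 IRS2 was only 7.16 in DMSO and 5.80 in JQ1, so that the sizes of its rises there rest on few reads. GRB14, an adaptor that inhibits insulin signalling, had log2 fold changes of -2.30 and -1.25 with lapatinib, at values of at most 11.5 and, in BT474m1, on 9 reads against 2. The ligands were scarce: IGF1 was at most 12.7 and IGF2 at most 13.8 in any library. IGFALS, the partner of IGFBP3 and IGFBP5 in the circulating complex, had log2 fold changes of 1.01 and 3.18 with lapatinib, from 2.15 to 5.36 in SKBR-3, where it starts at the floor of 3 reads, and from 2.36 to 29.5 in BT474m1.

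Of 16 proteases of the binding proteins and inhibitors of these proteases, 9 were kept. With lapatinib 1 rose and 3 fell in SKBR-3 and 3 rose and 1 fell in BT474m1, with JQ1 1 rose in SKBR-3 and 1 fell in BT474m1, and under the combination 1 rose and 3 fell in SKBR-3 and 1 rose and 2 fell in BT474m1. Beside these stand, over all genes kept, 11.1% that rose and 9.44% that fell in SKBR-3 and 14.0% and 8.06% in BT474m1 with lapatinib, 3.75% that rose in SKBR-3 and 11.8% that fell in BT474m1 with JQ1, and 10.8% and 20.8%, then 14.2% and 15.3%, under the combination. The 1 that rose with JQ1 in SKBR-3 is PAPPA2, on 2 reads against 0, and 1 of the 3 that fell with lapatinib there is STC2, on 3 reads against 0. Both were kept only through BT474m1, where PAPPA2 was itself under 10 in the DMSO and lapatinib libraries (3 and 13 reads). PAPPA, the protease that cleaves IGFBP4, was at most 3.06 in SKBR-3 and 1.89, 2.41, 2.42 and 3.50 in the DMSO, lapatinib, JQ1 and combination libraries of BT474m1, and was not kept. STC1, a stanniocalcin that inhibits PAPPA, fell with lapatinib (-3.31 and -1.29) and under the combination (-4.13 and -2.07). In SKBR-3 STC1 was 16.5 in DMSO, 0.766 in lapatinib and 0 in the combination. The last 2 values lie under the floor of 3 reads, so that the sizes of these falls depend on the pseudocount. Its relative STC2 was 461 with DMSO and 2039 with lapatinib in BT474m1, and at most 2.15 in SKBR-3. BMP1, a metalloproteinase of the matrix, fell under the combination (-1.79 and -1.04).

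Of 13 genes whose proteins share the IGF-binding domain, 7 were kept. With lapatinib 0 rose and 1 fell in SKBR-3 and 1 rose and 1 fell in BT474m1, with JQ1 1 rose and 2 fell in SKBR-3 and 1 rose and 1 fell in BT474m1, and under the combination 1 rose and 0 fell in SKBR-3 and 1 rose and 1 fell in BT474m1. A single gene is about 1 in 7 of this list, beside shares of all genes between 3.75% (rose with JQ1 in SKBR-3) and 20.8% (fell under the combination in SKBR-3), and the counts are read no further. NOV, 1 of the 2 that fell with JQ1 in SKBR-3, rests on 4 reads against 1. KAZALD1, a secreted protein with a Kazal-type domain, fell with JQ1 (-2.19 and -1.22). CRIM1, a transmembrane protein that binds BMPs, rose under the combination (1.24 and 1.21).

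Of 8 matrix and cell partners of IGFBP5, 7 were kept. With JQ1 0 rose and 3 fell in SKBR-3, under the combination 0 rose and 3 fell in SKBR-3 and 0 rose and 2 fell in BT474m1, and with lapatinib 0 rose and 1 fell in SKBR-3. Of all genes kept, 11.8% fell with JQ1 in SKBR-3, 20.8% and 15.3% fell under the combination, and 9.44% fell with lapatinib in SKBR-3. Fibronectin (FN1) fell with JQ1 (-1.03 and -1.72), as did its receptor subunit ITGA5 (-1.94 and -2.10). THBS1, thrombospondin, fell when JQ1 was added to lapatinib (-1.66 and -1.69). FHL2, a LIM-domain cofactor, fell when lapatinib was added to JQ1 (-1.02 and -1.22).

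All 10 transcription factors and chromatin proteins tied to the family were kept. With lapatinib 2 rose and 1 fell in SKBR-3 and 4 rose and 2 fell in BT474m1, with JQ1 0 rose and 1 fell in SKBR-3 and 0 rose and 2 fell in BT474m1, and under the combination 1 rose and 3 fell in SKBR-3 and 2 rose and 4 fell in BT474m1. The shares of all genes that rose and fell were 11.1% and 9.44% in SKBR-3 and 14.0% and 8.06% in BT474m1 with lapatinib, 3.75% and 11.8%, then 4.81% and 11.8%, with JQ1, and 10.8% and 20.8%, then 14.2% and 15.3%, with the combination. FOXO3, a forkhead factor held inactive by AKT, rose with lapatinib by 1.50 and 1.15 and on adding lapatinib to JQ1 by 2.18 and 1.33. EZH2, the methyltransferase of the Polycomb complex, fell with lapatinib (-2.42 and -1.45). TFAP2B, an AP-2 factor, fell under the combination in SKBR-3 (-4.19). Its calls in BT474m1, with lapatinib and under the combination, rest on 4 reads against 0 and a gene kept only through SKBR-3. The call of PGR under the combination in SKBR-3 rests on 2 reads against 0 and a gene kept only through BT474m1.

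The estrogen receptor gene ESR1 was 840.2 in DMSO, 1827 in lapatinib, 190 in JQ1 and 249 in the combination in BT474m1. In SKBR-3 it was 4.29, 16.8, 1.93 and 2.75, with log2 fold changes of 1.75 with lapatinib and -2.25 on adding JQ1 to lapatinib. PGR, the progesterone receptor and a target of the estrogen receptor, was 858, 12466, 251 and 290 in BT474m1 and at most 3.06 in SKBR-3. The order of these libraries in BT474m1, from lapatinib through DMSO and the combination to JQ1, is that of IGFBP5. The low level of IGFBP5 with JQ1 led to the choice of the family, and these receptor values were added after values were seen. The share of all genes with this order was not counted, and nothing is read from the match. In SKBR-3 ESR1 had this order, with combination and JQ1 values near the floor of 3 reads, whereas PGR was at 0 in the combination. In BT474m1 IGFBP4 shared the order of the highest libraries but was lowest in the combination. Whether either member depends on the receptors was not tested.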

How the data were processed

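Polyadenylated RNA was sequenced in 8 libraries, 1 for each of 2 lines and 4 treatments, as the labels give them. The deposited value of each gene is a signal: RSEM read counts that the authors scaled to an upper quartile of 1000. The submitters' processing notes name the build hg19, Picard 1.88, SAMtools 1.2, RSEM, DESeq and DESeq2 1.12.3. The study's methods name another assembly and do not state whether counting used strand, so that both are uncertain for the tables. They also name a shorter treatment for the cell lines in general, whereas a legend on SKBR-3 sequencing gives the time on the labels, which was followed.

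The value of 1 read, 0.471 to 0.766, was recovered from the steps between values, and 83.6% to 85.0% of values above 0 were whole reads within 0.01 read. The floor of 3 reads is 1.41 to 2.30. Log2 fold changes are differences of log2(value + 1), which understates the change of low genes, and a call is 2-fold. Counts of reads used for intervals were rounded. The method was tested on simulated data. Values were computed in Python 3.11.15 (pandas 2.3.3, numpy 2.4.6, scipy 1.17.1) and drawn with matplotlib 3.10.9.

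The members and lists were chosen with earlier results of these data known. The text names the members, list genes past 2-fold in one direction in both lines (at most 4 per list and comparison), the most alike genes (5 for IGFBP5, 2 for others) and the nearest kept genes. IGF1, IGF2, IRS1, IRS4, STC2, PAPPA, PAPPA2, NOV, CDH5, VWF, KDR, PECAM1 and the BT474m1 values of ESR1 and PGR were added after values were seen. The alternatives were a pseudocount of 10, a filter at 100 or none, 2 other scalings and, chosen after seeing the data, calls whose interval excludes no change.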

Additional observations from a re-analysis of the deposited data

Results flagged for a closer look

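The comparisons given here are those in which a kept member moved in opposite directions in the 2 lines with both counting intervals off no change. They concern 3 members, each line has 1 library per treatment, and the differences were not tested. IGFBP2 differed by 1.57 log2 units with lapatinib against DMSO (-0.54 in SKBR-3 and 1.03 in BT474m1), by 2.46 with both drugs against DMSO (-1.61 and 0.85) and by 1.82 with both drugs against JQ1 (-1.63 and 0.19). IGFBP4 differed by 5.22 with lapatinib against DMSO, where SKBR-3 had 0 reads against 9 and IGFBP4 was kept only through BT474m1. IGFBP3 differed by 3.25 with JQ1 against DMSO, where SKBR-3 had 1 read against 17. The values of these last differences depend on the pseudocount. With a pseudocount of 10 the log2 fold changes are -0.72 in SKBR-3 and 2.32 in BT474m1 for IGFBP4, and -1.06 and 0.24 for IGFBP3.
Opposite signs in which an interval includes no change were also seen for IGFBP7 with both drugs against DMSO (-2.36 and 0.46), IGFBP4 with both drugs against lapatinib (2 reads against 0 in SKBR-3, and -4.20 in BT474m1) and IGFBP3 with both drugs against JQ1 (3 reads against 1 in SKBR-3, and -2.20 in BT474m1).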

How the results depend on the processing

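No call count reversed, and with equal totals or median-of-ratios scaling all 22 counts of members called stayed within 1.5 times, but with the latter IGFBP2 was no longer 2-fold with lapatinib in BT474m1 (0.98, count 3 to 2) or on adding JQ1 to lapatinib in SKBR-3 (-0.92, count 4 to 3). With a pseudocount of 10 the members at least 2-fold lower in SKBR-3 went from 1 to 0 with lapatinib and from 5 to 3 with both drugs against DMSO, the members higher in SKBR-3 on adding JQ1 to lapatinib went from 1 to 0, and those higher in BT474m1 on adding lapatinib to JQ1 went from 2 to 1. With a filter at 100 the last count was also 1, and the members lower in BT474m1 than in SKBR-3 with DMSO went from 1 to 0. With no filter, IGFBP1 and IGFBP6 enter, and in BT474m1 the members higher with lapatinib went from 3 to 5 and those lower on adding JQ1 to lapatinib from 3 to 5. Counting only changes whose interval excludes no change, an alternative chosen after seeing the data, gave 0 members higher in SKBR-3 on adding JQ1 to lapatinib and 1 higher in BT474m1 on adding lapatinib to JQ1. Equal totals moved the median of all genes with JQ1 in SKBR-3 from -0.08 to -0.22 and IGFBP5 there from -4.88 to -5.03, and median-of-ratios scaling moved the median of the line difference from 0.21 to 0.06 and IGFBP5 in it from 1.19 to 1.04. Members with under 20 reads in a line are limited by depth. Pairing the treatments by line, with the 2 lines as replicates, was not run.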
